A study of Mus musculus with 12 samples.

Results

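The 9 genes described here encode proteins that act on messenger RNA in germ cells: Nanos1, Nanos2, Nanos3, Dnd1, Pum2, Dazl, Ddx4, Cnot1 and Elavl2. They were chosen by symbol, and all 9 were found among the 55487 Ensembl genes of the RNA sequencing table and passed the filter on low values (10 or more normalized counts in 3 or more libraries), as did 22384 genes in all. RNA came from gonocytes, the male germ cells before spermatogonia form, taken from Mvh-Venus transgenic mice, with 3 libraries per stage from embryonic days E13.5 and E16.5 and postnatal days P0 and P3. Mvh is an older name of Ddx4, 1 of the 9 genes, so its level may not be independent of how the cells were marked, and the way they were isolated is not given in the sources used here. Titles and source names call every sample wild type, whereas the genotype tag reads Morc1 (+/-) at E13.5 and P0 and Morc1 (-/-) at E16.5 and P3. Genotype, if the tag were right, cannot be told apart from stage in a comparison of consecutive stages. P0 against E13.5 and P3 against E16.5 stay within 1 tag each. Nothing says whether the 3 libraries of a stage came from separate animals, so p-values measure the spread between these libraries only.

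NANOS proteins are zinc finger proteins that bind RNA together with Pumilio proteins and recruit the CCR4-NOT complex, which shortens poly(A) tails and thereby lowers the stability and translation of the messages they bind. NANOS3 is known for keeping primordial germ cells alive. NANOS2 follows it in fetal male germ cells, where it holds back the meiotic program and supports the male one, with DND1 as its partner, and it later maintains spermatogonial stem cells. DAZL and the helicase DDX4 (VASA) are classic germ cell proteins, the former a regulator of translation and the latter a component of germ granules.

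The level of a gene is given as the normalized count, the reads of the gene divided by 1 size factor per library. Libraries are named by the number 1, 3 or 4 of the table's column heads, and 3 values in a row are in that order. Total reads per library ranged from 40946616 to 51533747. Every ± is an SD over 3 libraries, and a log2 fold change is that of the normalized count plus 1. Because the samples are bulk RNA, fewer cells of a type and less RNA per cell cannot be told apart. The sums of 9 other germ cell markers ranged from 138293 to 147664 normalized counts at E13.5 and 155975 to 166843 by E16.5. They ranged from 77239 to 82872 by P0 and 85068 to 90109 by P3. These 9 markers did not all move together. At E16.5 against E13.5, 4 rose and 5 fell, where 45.5% of all genes tested rose and 34.6% fell. At P0 against E16.5 most fell: 7 were lower and only Zbtb16 higher (median log2 fold change -0.95), against 33.4% and 27.6% of genes. With libraries scaled to equal totals, 5 were lower and 2 higher at that step. At P3 against P0, 5 rose and 3 fell, against 40.1% and 36.4% of genes. The sum of the 9 markers therefore follows its most abundant members and is no plain measure of germ cell content. The sum of 8 Sertoli cell markers was 1372 to 2150 at E13.5, 2909 to 6109 by E16.5, 11097 to 21170 by P0 and 4561 to 6468 by P3. The Sertoli marker Cldn11 had at most 3 reads in each of the E13.5 and P3 libraries. The 6 Leydig cell markers summed to 1494 to 7281 at P0 and to 812 to 8184 at E16.5, against 499 to 527 at P3, and the 6 mast cell markers to 1193 to 2727 at P0, against 27.9 to 43.5 at E16.5. Red blood cell markers summed to 1601 to 2563 at P0 and 295 to 546 at P3. Peritubular and mesenchymal markers summed to 2357 to 2467 at P0 and 1203 to 1564 at E16.5. The 6 macrophage and endothelial markers summed to 4413 to 5150 at E13.5, mostly Pecam1, and to 1352 to 1422 at E16.5, 744 to 904 at P0 and 743 to 908 at P3. This sum hides opposite moves at E16.5 against E13.5, where 5 of the 6 rose (median log2 fold change 3.64) and only Pecam1 fell. Of all genes tested, 45.5% rose and 34.6% fell at that step. Of the 6 markers, Pecam1 rose from 282 ± 74.3 to 515 ± 35.3 normalized counts between E16.5 and P0, Cd68 fell from 938 ± 97.9 to 38.8 ± 9.21, and 4 were not called. Signal of somatic cells was therefore highest at P0 for Sertoli, mast and peritubular markers, and its part in the changes below was not tested.

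The sequences before the start sites of Nanos2, Nanos3 and Dazl are shown as examples of the low and high CG content found among these genes. They come from RefSeq (GRCm38.p6), run 5′ to 3′ along the gene's strand, leave out annotated exons and have CG in capitals.
Nanos2, chr7:18987274-18987399, + strand: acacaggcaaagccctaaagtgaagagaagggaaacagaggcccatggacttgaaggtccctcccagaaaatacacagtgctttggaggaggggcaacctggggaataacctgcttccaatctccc
Nanos3, chr8:84176553-84176802, - strand: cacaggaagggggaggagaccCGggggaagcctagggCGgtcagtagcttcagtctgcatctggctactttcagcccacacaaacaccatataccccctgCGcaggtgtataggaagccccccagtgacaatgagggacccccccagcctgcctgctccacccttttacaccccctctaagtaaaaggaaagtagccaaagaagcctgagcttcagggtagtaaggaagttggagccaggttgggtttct
Dazl, chr17:50293637-50293870, - strand: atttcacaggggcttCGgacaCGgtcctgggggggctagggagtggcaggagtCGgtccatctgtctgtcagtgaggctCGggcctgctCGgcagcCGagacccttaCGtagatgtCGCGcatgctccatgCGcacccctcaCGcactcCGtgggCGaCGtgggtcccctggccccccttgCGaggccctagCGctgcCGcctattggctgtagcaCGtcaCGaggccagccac

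In the 250 bases before the RefSeq start, Nanos2 held 0 CG dinucleotides and Nanos3 held 3, a number reached by 71.0% of 32851 mouse promoters, whose median was 6. Dazl held 20, a number reached by 17.9% of promoters. Ddx4 held 31 and Nanos1 held 25, reached by 5.19% and 10.7%. Pum2 held 30 to 36 before its 3 RefSeq starts. Ddx4, rich in CG, had its lowest mean level at P0, as did Nanos2 and Nanos3, while Dazl and Nanos1 had theirs at E16.5. Pum2 had means of 257 normalized counts at E16.5 and 254 at P0, which were not called different. Whether CG content goes with the course over the stages was not tested. A promoter's CG content is a description, and no methylation data were used here.

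Pumilio proteins bind an 8-base element in the 3′ untranslated region of messages. The element TGTANATA, searched on the sense strand in the longest annotated 3′ untranslated region of each gene (GENCODE M21), is printed in capitals within its surroundings for the 3 genes that held more than 1, with bases counted from the start of that region.
Pum2, base 3494 to 3501: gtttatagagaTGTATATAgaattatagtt
Pum2, base 3747 to 3754: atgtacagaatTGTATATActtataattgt
Cnot1, base 1954 to 1961: gaacggttgatTGTAAATAggccacatcct
Cnot1, base 2376 to 2383: ttttgaacttgTGTAAATAtatgaaagaga
Elavl2, base 1280 to 1287: gctttgtgtgaTGTAAATAagaccttgtgt
Elavl2, base 1488 to 1495: ctaattctgtcTGTAGATAgtctagcttca
Elavl2, base 2153 to 2160: aataaaatacaTGTATATAtttaaaaaaaa

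Pum2 itself held 2 elements, Cnot1 held 2, Elavl2 held 3 and Nanos1 held 1. Of untranslated regions within 0.8 to 1.25 times the length, 65.4% held an element for Pum2, 36.3% for Cnot1, 37.5% for Elavl2 and 41.1% for Nanos1. Nanos2, Nanos3, Dnd1, Dazl and Ddx4 held none, where 16.8%, 2.98%, 6.58%, 29.7% and 12.5% of regions of like length did. A match is no evidence of binding, and a region without these letters may still be bound.

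All 9 genes differed among the 4 stages (limma moderated F-test, Benjamini-Hochberg adjusted p at most 1.90e-08), as did 95.2% of the genes tested, so the share called says little about these genes and their sizes of change are what follows. At E16.5 against E13.5, 8 of the 9 changed, against 80.1% of genes tested. Of these, Dnd1 rose and 7 fell, where 45.5% of all genes rose and 34.6% fell. For all 9 the E16.5 libraries lay wholly above or below those of E13.5, against 80.2% of genes. With equal library totals 2 rose and 5 fell. At P0 against E16.5, 4 rose (Nanos1, Dazl, Cnot1 and Elavl2), 4 fell (Nanos2, Nanos3, Dnd1 and Ddx4) and Pum2 did not pass, against 61.0% of genes called, 27.6% higher and 33.4% lower. Libraries were apart for 8 of the 9, against 69.5% of genes, and equal library totals gave 5 higher and 4 lower. At P3 against P0 all 9 changed, 8 higher and Elavl2 lower, against 76.5% called, 40.1% higher and 36.4% lower. Libraries were apart for 9, against 81.0% of genes, and equal library totals gave 7 higher and 1 lower. The median log2 fold change of the 9 genes was -0.81, 0.02 and 1.12 in these comparisons. Over all genes tested it was 0.31, -0.01 and 0.05. With equal library totals the median of the 9 was -0.31, 0.68 and 0.28, beside 0.84, 0.68 and -0.86 over all genes. All shares of genes given here are for the size factors of the file, and none was computed for equal totals, so those counts have no share beside them.

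**Figure D1:**
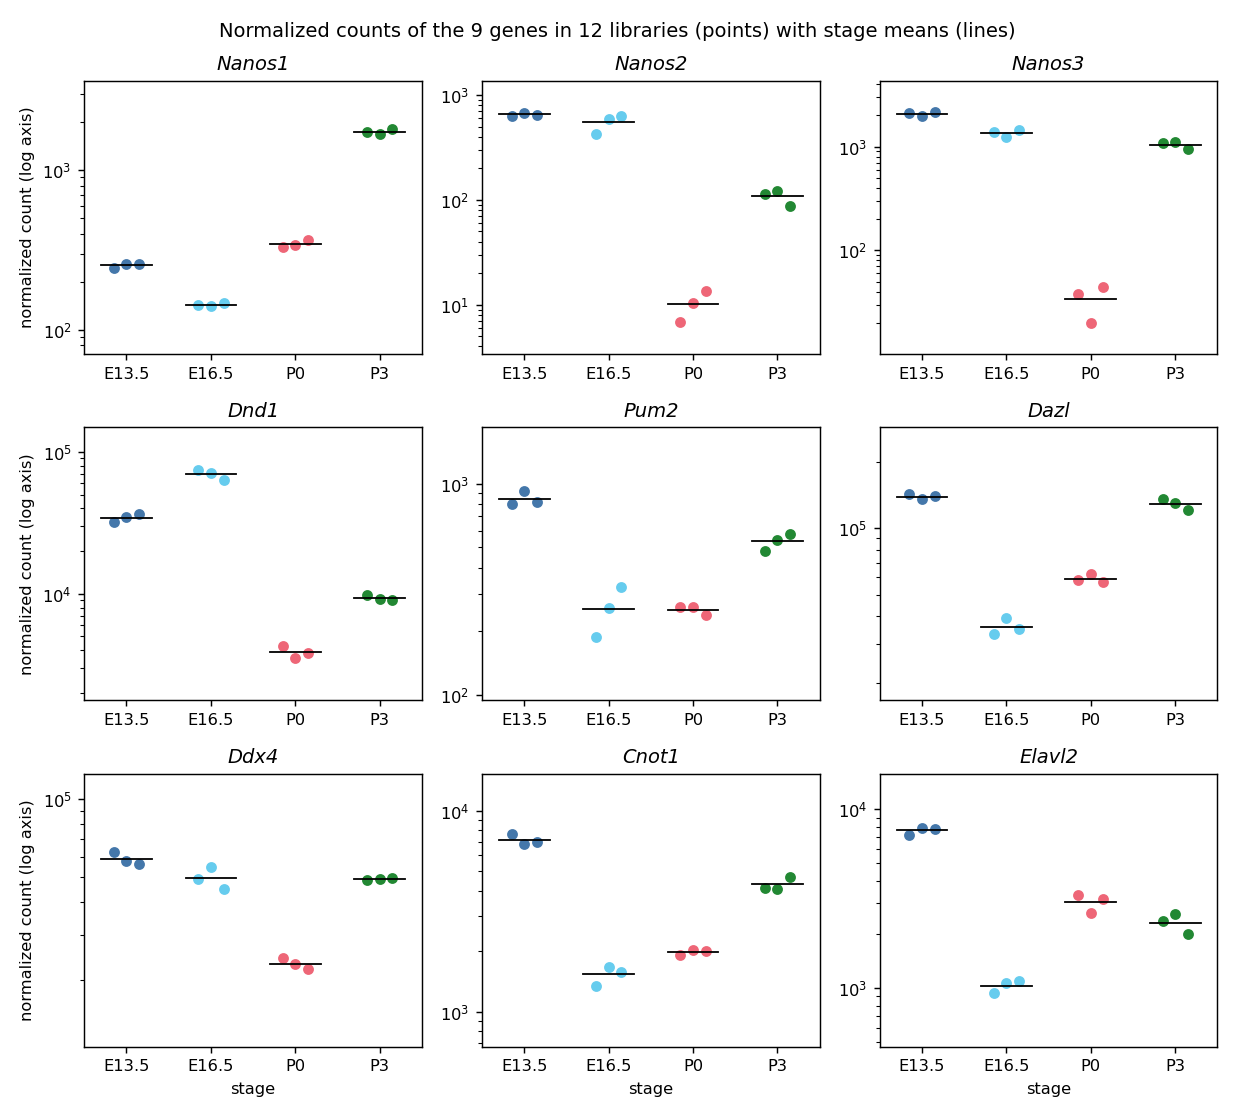
Normalized counts (log axis) of each of the 9 genes against stage, with 1 point per library and a line at the mean of the 3 libraries of a stage. Nanos2, Nanos3 and Dnd1 have their lowest points at P0, while Dazl, Cnot1 and Elavl2 have theirs at E16.5 and Nanos1 its highest at P3.

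Nanos2 (ENSMUSG00000051965) codes for protein on chromosome 7, + strand, from 18987400 to 18988962 (GRCm38, as for all positions here). Its normalized counts were 635, 681 and 649 at E13.5, 428, 596 and 630.0 by E16.5, 6.79, 10.3 and 13.51 by P0 and 113, 123 and 88.1 by P3. Every P0 library lay far under every other library, and the P3 libraries lay between P0 and the fetal stages with no overlap. Between E13.5 and E16.5 the log2 fold change was -0.27 (95% interval -0.76 to 0.22, limma adjusted p 0.296), which did not pass. Nanos2 then fell by 5.65 on the log2 scale at P0 (SE 0.232, adjusted p 5.92e-12) and rose by 3.31 at P3 (adjusted p 1.20e-09). At P3 it was still lower than at E13.5, with a difference of -2.60 on that scale (adjusted p 3.18e-08). Some reads were still assigned to Nanos2 at P0, with 13, 19 and 28 in the 3 libraries. These lie above the 3 reads taken as the floor, which covers counting error only. Which cells they came from was not tested.

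The count of Nanos2 has a limit of annotation. The antisense gene Gm45058 lies over 766 of the 1563 exon bases of Nanos2, which is 49.0%, and is listed at 0 in all 12 libraries. Whether reads were counted by strand, and what was done with reads that fall in 2 genes, is not given in the sources used here. How many Nanos2 reads came from the 797 bases it does not share was not tested.

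Nanos3 (ENSMUSG00000056155, chromosome 8, - strand, 84173731 to 84185217) had 2097, 1996 and 2144 normalized counts at E13.5, 1388, 1252 and 1463 by E16.5, 38.1, 20.1 and 43.9 by P0 and 1087, 1097 and 950.5 by P3. As for Nanos2, the P0 libraries stood apart from all others, but the P3 libraries came close to those of E16.5, which they did not overlap. Nanos3 fell by 0.61 on the log2 scale at E16.5 (SE 0.196, limma adjusted p 0.00949). This change shrank to -0.38 (adjusted p 0.081) with median-of-ratios factors and to -0.10 (adjusted p 0.656) with equal library totals. It fell by 5.36 at P0 (adjusted p 1.86e-12) and rose by 4.97 at P3 (adjusted p 1.06e-12), the largest rise among the 9 genes. P3 against E16.5 gave -0.39 (95% interval -0.80 to 0.03, adjusted p 0.0881). That difference passed with edgeR (adjusted p 0.0109) and DESeq2 (adjusted p 0.00191) on the recovered reads. It also passed without P0 library 3 (adjusted p 0.00351) or P0 library 4 (adjusted p 0.0477).

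Within a library the balance of these NANOS messages is free of scaling. There were 3.18 ± 0.215 Nanos3 reads per Nanos2 read at E13.5, 2.55 ± 0.605 by E16.5, 3.60 ± 1.86 by P0 and 9.77 ± 0.942 by P3. The P3 libraries, from 8.94 to 10.8, lay above all libraries of the other stages, of which the highest was 5.62 at P0. No test was run on this ratio.

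Nanos1 (ENSMUSG00000072437, chromosome 19, + strand, 60755987 to 60759914), the family member known best from the nervous system, ran a different course. Its normalized counts were 243, 258 and 259.7 at E13.5, 142, 141 and 148 by E16.5, 330.0, 339 and 367 by P0 and 1737, 1689 and 1806 by P3. No stages overlapped, and every P3 library lay far above all others. Nanos1 fell by 0.81 on the log2 scale at E16.5 (limma adjusted p 2.54e-06). It rose by 1.257 at P0 (adjusted p 2.99e-08) and by a further 2.33 at P3 (SE 0.107, adjusted p 6.06e-12). It was the only one of the 9 genes called higher at P3 than at E13.5, by 2.78 (adjusted p 9.30e-13); with equal library totals Dazl was called higher too (0.22, adjusted p 0.00624).

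Dnd1 (ENSMUSG00000044595, chromosome 18, - strand, 36763671 to 36766214), an RNA-binding partner of NANOS2 whose loss causes germ cell tumours in mice, was abundant in fetal germ cells. Its normalized counts were 31865, 34612 and 36638 at E13.5, 74414, 70585 and 63749 by E16.5, 4313, 3545 and 3819 by P0 and 9874, 9183 and 9040.0 by P3. The stages did not overlap, and the order from low to high was P0, P3, E13.5, E16.5. Dnd1 rose by 1.02 on the log2 scale at E16.5 (SE 0.0832, limma adjusted p 6.90e-09), when the other called genes fell. It fell by 4.16 at P0 (adjusted p 1.11e-14) and rose by 1.27 at P3 (adjusted p 5.17e-10), to a level still -1.87 relative to E13.5. Exons of Dnd1 share 140 bases, 5.80% of their length, with Wdr55 on the other strand.

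Pum2 stands for the Pumilio proteins that bind RNA together with NANOS proteins, and Cnot1 for the CCR4-NOT complex that they recruit. Pum2 (ENSMUSG00000020594, chromosome 12, + strand, 8674134 to 8752581), a Pumilio protein, had 799, 922 and 818 normalized counts at E13.5, 189, 258 and 324 by E16.5, 262, 259.7 and 239.9 by P0 and 478, 542 and 579 by P3. The E16.5 libraries spread widely and spanned those of P0. Pum2 fell by 1.75 on the log2 scale at E16.5 (SE 0.16, limma adjusted p 2.83e-08). The step to P0 was 0.02 (95% interval -0.32 to 0.36, adjusted p 0.934). It became 0.68 (adjusted p 0.0028) with equal library totals. The rise at P3 was 1.06 (adjusted p 1.34e-05) and fell to 0.22 (adjusted p 0.247) under that scaling. Pum2 was lower at P3 than at E13.5 (-0.67, adjusted p 0.00133), but not called with equal library totals (-0.34, adjusted p 0.097).

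Cnot1 (ENSMUSG00000036550, chromosome 8, - strand, 95719451 to 95807464) encodes the scaffold on which the CCR4-NOT subunits assemble. Its normalized counts were 7632, 6837 and 6997 at E13.5, 1341, 1680.2 and 1581 by E16.5, 1919.9, 2035 and 2013 by P0 and 4139, 4105 and 4666 by P3. The stages did not overlap, and the order was E16.5, P0, P3, E13.5. Cnot1 fell by 2.23 on the log2 scale at E16.5 (SE 0.0868, limma adjusted p 5.32e-13). It then rose by 0.38 at P0 (adjusted p 0.00119) and by 1.11 at P3 (adjusted p 4.94e-09). Before division by size factors, Cnot1 had 1405 to 1998 reads at E16.5, 3677 to 4170 at P0 and 4180 to 4610 at P3. The sizes of these rises therefore depend on the size factors. Within the same genotype tag it was lower at P0 than at E13.5 (-1.85, adjusted p 3.22e-12) and higher at P3 than at E16.5 (1.49, adjusted p 1.66e-10).

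Dazl (ENSMUSG00000010592, chromosome 17, - strand, 50279395 to 50293636) promotes translation of bound messages and licenses germ cells for sexual differentiation. Its normalized counts were 142605, 135065 and 139453 at E13.5, 33424, 39372 and 35063 by E16.5, 58205, 62301 and 57195 by P0 and 135409, 130669 and 120568 by P3. E16.5 was the low point, and the P3 libraries overlapped those of E13.5. Dazl fell by 1.95 on the log2 scale at E16.5 (SE 0.0746, limma adjusted p 4.16e-13). It rose by 0.72 at P0 (adjusted p 3.22e-07) and by 1.12 at P3 (adjusted p 6.42e-10). Before division by size factors, Dazl had 111475 to 118500 reads at P0 and 119114 to 139736 at P3. The size of the rise at P3 therefore depends on the size factors. P3 against E13.5 gave -0.11 (95% interval -0.27 to 0.05, adjusted p 0.198). P0 against E13.5 was -1.23 (adjusted p 9.24e-11), but -0.06 (adjusted p 0.366) with equal library totals.

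Ddx4 (ENSMUSG00000021758, chromosome 13, - strand, 112598333 to 112652475) varied least of the 9, with a ratio of 2.54 between its highest and lowest stage means. Its normalized counts were 62737, 57634 and 56412 at E13.5, 49432, 54570.2 and 44916 by E16.5, 24320.1, 23070.2 and 22150.5 by P0 and 49039, 49382 and 49587 by P3. The P0 libraries lay lowest and those of E13.5 highest, while P3 and E16.5 overlapped. Ddx4 fell by 1.10 on the log2 scale at P0 (SE 0.075, limma adjusted p 2.01e-09) and rose by 1.09 at P3 (adjusted p 9.68e-10). Before division by size factors, its reads numbered 51802 to 58688 at E16.5, 42455 to 46578 at P0 and 48989 to 50606 at P3. The size of both steps therefore depends on the size factors, though both kept direction and call with equal library totals. The small fall at E16.5 of 0.25 (adjusted p 0.00588) turned into a rise of 0.26 (adjusted p 0.000532) with equal library totals. P3 and E16.5 differed by -0.0043 (95% interval -0.16 to 0.15, adjusted p 0.963). This passed as lower at P3 with median-of-ratios factors (-0.19, adjusted p 0.0258) and with equal library totals (-0.18, adjusted p 0.0084).

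Elavl2 (ENSMUSG00000008489, chromosome 4, - strand, 91250763 to 91400785), a Hu family protein that binds AU-rich and U-rich RNA, had 7229, 7892 and 7737 normalized counts at E13.5, 942, 1069 and 1094 by E16.5, 3309, 2621 and 3162 by P0 and 2363, 2617 and 2001 by P3. No stages overlapped, and the highest P3 library lay just under the lowest P0 library. Elavl2 fell by 2.88 on the log2 scale at E16.5 (SE 0.105, limma adjusted p 2.33e-13), the largest fall of the 9 at this step. It rose by 1.54 at P0 (adjusted p 1.79e-09) and fell by 0.38 at P3 (adjusted p 0.0034). The size of this fall depends on the size factors. Before division by them, Elavl2 had 4823 to 6551 reads at P0 and 1977 to 2665 at P3. At P0 against E13.5 it was -1.34 (adjusted p 2.85e-09), and -0.17 (adjusted p 0.155) with equal library totals.

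**Figure D2:**
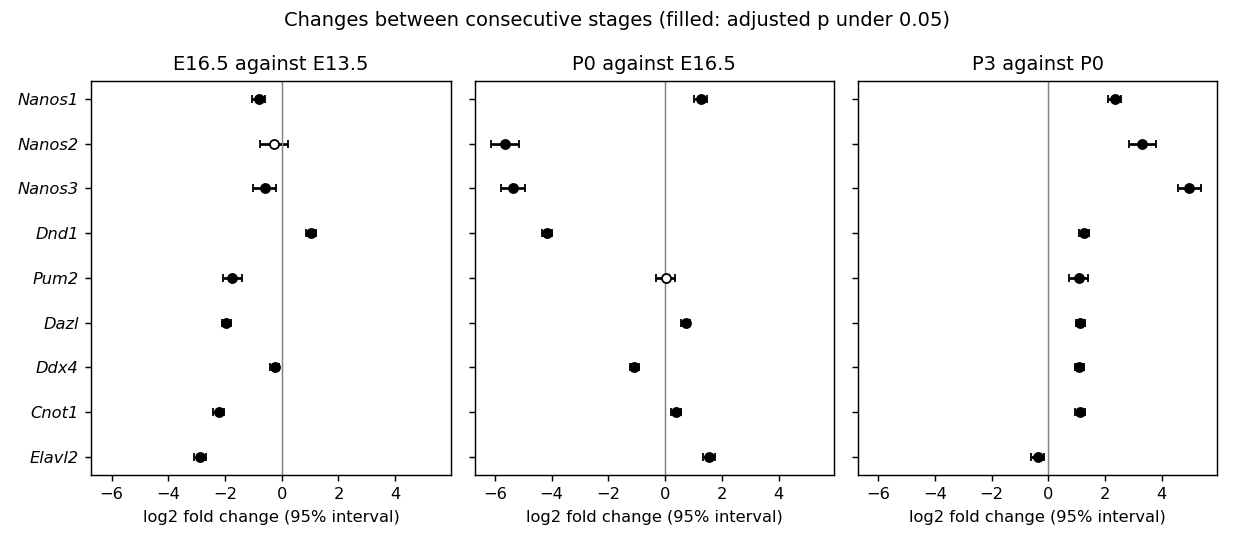
Log2 fold change of each of the 9 genes (points) with its 95% interval (bars) for the consecutive comparisons of stages, filled where limma's adjusted p was under 0.05. At P0 against E16.5 Nanos2, Nanos3 and Dnd1 lie between -5.65 and -4.16 and every other gene lies at -1.10 or above.

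The comparisons of stages that are not consecutive share libraries with those above. At P0 against E13.5 all 9 genes changed, Nanos1 higher and 8 lower, against 86.1% of genes tested (45.7% higher and 40.5% lower), and libraries were apart for 9, against 88.1% of genes. Equal library totals left 1 higher and 6 lower here, without Dazl and Elavl2. At P3 against E16.5, 7 changed, against 69.5% of genes tested. Nanos1, Pum2, Dazl, Cnot1 and Elavl2 were higher and Nanos2 and Dnd1 lower, where 34.2% of all genes were higher and 35.2% lower. Libraries were apart for 8, against 71.6% of genes, and equal library totals gave 5 higher and 4 lower, with Nanos3 and Ddx4 now called. At P3 against E13.5, 8 changed, against 70.4%, with Nanos1 higher and 7 lower, where 39.2% of all genes were higher and 31.2% lower. Libraries were apart for 8, against 71.3% of genes, and equal library totals gave 2 higher and 5 lower, with Dazl now higher and Pum2 and Ddx4 not called.

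Per 1000 bases of exon, the 9 genes spanned a wide range of levels. At E13.5 Dazl had 36398 normalized counts per 1000 bases, Ddx4 19551, Dnd1 14250.2 and Nanos3 2250.1. At this stage Elavl2 had 917, Nanos2 419, Cnot1 417, Pum2 117 and Nanos1 64.5. The highest of the 9 was Dazl at E13.5, P0 and P3 but Dnd1 at E16.5, where it reached 28848 against 9412 for Dazl. Among the NANOS genes Nanos3 was highest in the fetal stages and at P3 (1131), where Nanos1 (444) had passed Nanos2 (69.1). At P0 Nanos1 led with 87.9, against 36.8 for Nanos3 and 6.53 for Nanos2. If no read came from the bases that Nanos2 shares with Gm45058, dividing its count by the other 797 bases gives upper limits of 822 at E13.5 and 136 at P3, the latter still under Nanos1.

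Relating each gene to Ddx4 in the same library removes the size factor. Nanos2 had 11.1 ± 0.898 reads per 1000 Ddx4 reads at E13.5, 11.2 ± 2.69 by E16.5, 0.446 ± 0.166 by P0 and 2.19 ± 0.37 by P3. Nanos3 had 35.4 ± 2.37, 27.9 ± 4.82, 1.47 ± 0.562 and 21.2 ± 1.75 in the same order. The low point at P0 of both genes was therefore present against this germ cell message too. Dnd1 had 586 ± 71.9, 1406 ± 107, 168 ± 12.5 and 189.9 ± 10.1, so that its P0 and P3 levels lay close together on this scale. Dazl had 2363 ± 101 reads per 1000 Ddx4 reads at E13.5, 2559 ± 155 at P0 and 2613 ± 167 at P3, but 726 ± 52.4 at E16.5. Cnot1 was also lowest at E16.5 with 31.0 ± 4.05, against 121 ± 2.71 at E13.5, 86.0 ± 6.26 at P0 and 87.2 ± 6.004 at P3. For Dazl and Cnot1 the P0 and P3 levels lay close together, so their rise at P3 in normalized counts was not seen on this scale. Nanos1 rose from 2.92 ± 0.355 at E16.5 to 14.9 ± 1.52 at P0 and 35.4 ± 1.11 at P3.

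**Figure D3:**
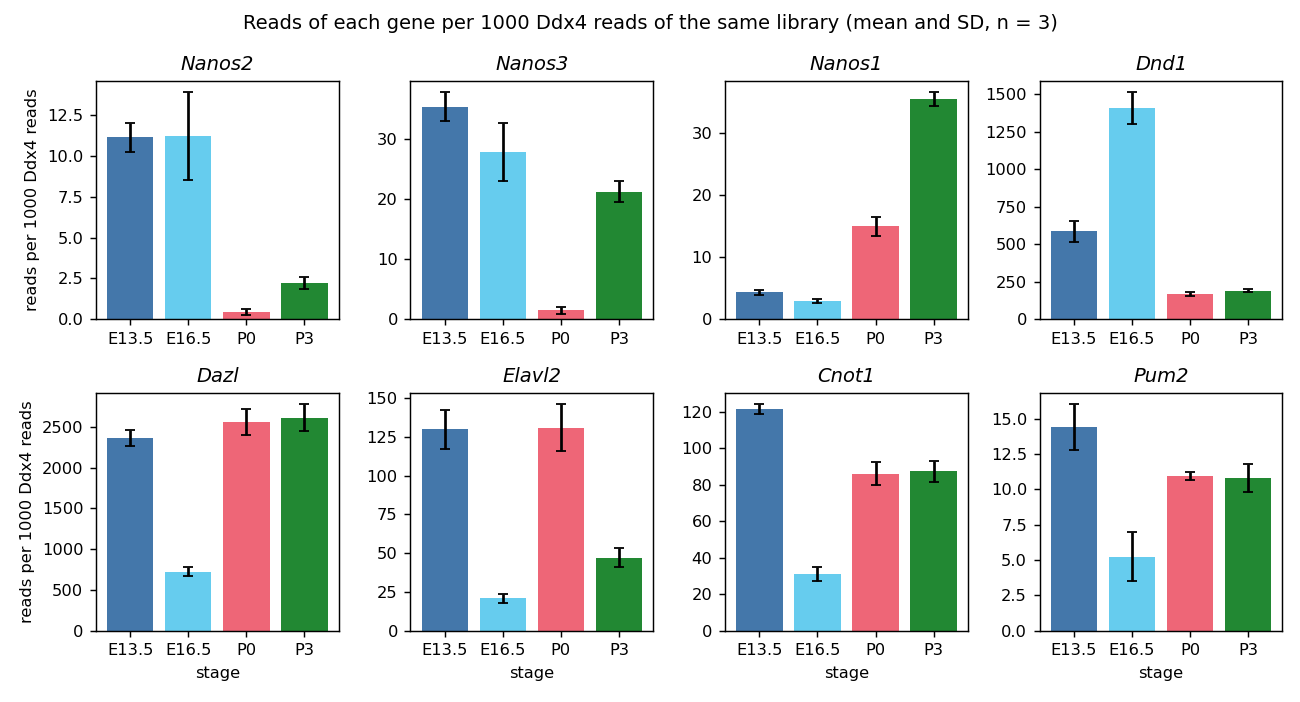
Reads of each gene per 1000 Ddx4 reads of the same library (bars, mean of 3 libraries, with SD) against stage, on linear axes that start at 0. Nanos2 and Nanos3 are near 0 at P0, Dnd1 peaks at E16.5, and Dazl is high at every stage but E16.5.

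How alike the 9 genes were was described by the root mean square difference of their log2 values over the 12 libraries, each gene centred on its own mean. Among the 36 pairs the most alike were Pum2 and Cnot1 (0.237), Dazl and Cnot1 (0.275) and Pum2 and Dazl (0.374). Nanos2 and Nanos3 differed by 0.830, and Nanos2 and Dnd1 by 1.06. The pair least alike was Nanos1 and Nanos2 (3.11). Ddx4 was nearest to Pum2 (0.596), and Nanos1 to Dazl (1.04).

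The same measure was taken against 12192 other genes with a mean of at least 100 normalized counts, and the difference is given in parentheses. The nearest to Nanos2 was Ctsw (1.01), followed by Actn2 (1.03) and Fancd2 (1.05), all farther from it than Nanos3 was. The nearest to Nanos3 was Wbp2nl (1.03), then Bckdk (1.03) and Zbtb3 (1.03). For Dnd1 it was Nfkbid (0.28), which rose from 997 ± 73.1 normalized counts at E13.5 to 2138 ± 237 at E16.5 and stood at 143 ± 23.3 at P0 and 206 ± 7.48 at P3, then Lrrc29 (0.448) and Orai3 (0.456). The nearest to Nanos1 were Asb9 (0.172), Wwc1 (0.237) and Trib1 (0.249). For Dazl they were Gmcl1 (0.0618), Ola1 (0.0987) and Vapa (0.122), and for Ddx4 Ctps (0.066), Selenoi (0.0696) and Tti1 (0.072). Those of Cnot1 were Tmem165 (0.0854), Tmbim1 (0.0897) and Trim25 (0.0899), and those of Pum2 Ireb2 (0.128), Arid1a (0.144) and Exoc8 (0.154). The nearest gene to Elavl2 was another RNA-binding gene, Igf2bp3 (0.148), with 6693 ± 328 normalized counts at E13.5, 968 ± 49.9 by E16.5, 2562 ± 14.9 by P0 and 1954 ± 89.5 by P3. Ntpcr (0.211) and Galk2 (0.229) came next.

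The counts of called genes in the lists below are to be read beside those of all genes tested. At E16.5 against E13.5, 45.5% of these rose and 34.6% fell. At P0 against E16.5 27.6% rose and 33.4% fell, and at P3 against P0 40.1% and 36.4%. For equal library totals no such shares were computed, and the medians over all genes were 0.84, 0.68 and -0.86. The other subunits of CCR4-NOT did not all move with Cnot1. Of 10 subunits, at E16.5 against E13.5 1 rose, 5 fell and 4 did not pass (median log2 fold change -0.15). The largest fall was in the deadenylase Cnot7, from 5375 ± 490.1 to 1394 ± 273 normalized counts, and Cnot10 rose by 0.62. At P0 against E16.5, 2 rose, 6 fell and 2 did not pass (median -0.73), with Cnot3 lowest at -1.31 and Cnot6l highest at 0.59. At P3 against P0, 7 rose, 0 fell and 3 did not pass (median 0.85). Cnot9 rose most, from 3181 ± 163 to 12266 ± 78.6, and the deadenylase Cnot6l went from 939 ± 48.6 to 2579 ± 47.4. These splits hold for the size factors of the file: with equal library totals, in the order of the comparisons, 5 rose and 2 fell, 4 rose and 4 fell, and 5 rose and 5 fell.

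BTG and TOB proteins bind the CCR4-NOT deadenylases. Of 6 such genes, 1 rose and 5 fell at E16.5 against E13.5, with Btg1 lowest (-2.11) and Btg4, a gene of few counts, higher (3.57). At P0 against E16.5 2 rose and 2 fell, with Tob1 highest (0.79) and Btg3 lowest (-0.35, but 0.31 with equal library totals). At P3 against P0, 4 rose and 1 fell, with Btg3 rising from 1752 ± 205 to 5462 ± 346 normalized counts and Tob2 at -0.42. Their medians were -0.76, -0.14 and 0.90 in these 3 comparisons, and under equal totals 1 rose and 3 fell, 5 rose and 0 fell, and 3 rose and 2 fell in the same order.

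The paralogs did not move as a block. Boll, the DAZ family member of later spermatogenesis, rose by 0.63 at E16.5, when Dazl fell, and by 1.48 at P3, to 2142 ± 182 normalized counts. Elavl1, the widely expressed Hu gene, fell by 1.47 at P0, where Elavl2 rose, and rose by 1.12 at P3, where Elavl2 fell. The neuronal Elavl3 rose by 2.21 at E16.5 and fell by 2.16 at P3, and Ddx3x fell by 1.43 at E16.5. Elavl3 is a gene of few counts, with 5 to 14 reads a library at E13.5 and 5 to 17 at P3. Elavl4 rose by 0.48 at P0 (limma adjusted p 0.0432), a call lost with poscounts factors (0.45, adjusted p 0.0548). Of the 6 paralogs 2 rose and 3 fell at E16.5, 1 rose and 3 fell at P0, and 4 rose and 2 fell at P3, with medians of -0.24, -0.19 and 0.61. Equal totals made this 3 higher and 2 lower, 3 higher and 1 lower, and 2 higher and 3 lower. The differences between paralogs were not tested.

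AU-rich element binding genes encode a class of proteins that mostly promote the decay of short-lived messages. All 7 fell at E16.5 against E13.5 (median -2.38), where 34.6% of all genes tested fell. Zfp36l1 went from 984 ± 36.8 to 85.1 ± 37.5 normalized counts (-3.60 on the log2 scale, limma adjusted p 4.71e-11). At P0, 3 rose and 2 fell (median 0.20), with Zfp36l1 at 1.34 and Tial1 at -0.89. At P3 against P0 all 7 rose (median 1.67), where 40.1% of all genes tested did, and Zfp36l1 reached 1239.6 ± 62.5. Under equal library totals 0 rose and 6 fell, 5 rose and 0 fell, and 5 rose and 0 fell, so the direction of the outer steps was kept by those that passed. Tial1 was then not called at P0 (-0.23, adjusted p 0.0832).

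Of 12 P-body and decapping genes, whose products remove the cap of messages or store them, 3 rose and 6 fell at E16.5 against E13.5 (median -0.11). Lsm14a fell most (-1.97) and Patl2 rose most (1.43). At P0 against E16.5, 1 rose and 8 fell (median -0.57), with Edc3 lowest (-1.54). Patl2 was the exception, from 210.0 ± 31.4 to 657 ± 38.2 normalized counts. At P3 against P0, 9 rose and 0 fell (median 0.76), led by the decapping enzyme gene Dcp2 (2.04). Scaled to equal totals, 6 rose and 4 fell, 3 rose and 3 fell, and 4 rose and 4 fell.

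Among 10 poly(A) tail and cytoplasmic polyadenylation genes, 1 rose and 7 fell at E16.5 (median -0.47), 3 rose and 3 fell at P0 (median 0.05), and 5 rose and 4 fell at P3 (median 0.22). Cpeb1, which controls polyadenylation in the cytoplasm, fell most at E16.5, from 11904 ± 651 to 2368 ± 306 normalized counts, and Cpeb4 rose (1.84). Its relative Cpeb2 was high at P0 alone, with 1234 ± 94.9 normalized counts there against 186 ± 23.3 at E13.5, 133 ± 8.66 at E16.5 and 110.5 ± 8.49 at P3. Pan2 fell by 1.44 at P0. The deadenylase Parn had 1127 ± 121 at P0 and 5019.8 ± 113 at P3, a rise of 2.16 on the log2 scale. Here too equal totals shifted the counts, to 4 higher and 3 lower, 7 higher and 1 lower, and 2 higher and 7 lower.

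Of 16 other RNA-binding genes studied in germ cells, 4 rose and 12 fell at E16.5, 9 rose and 4 fell at P0, and 9 rose and 3 fell at P3, with medians of -0.68, 0.35 and 0.36. Msi1, with only 6 to 10 reads a library at E13.5, rose most at E16.5 (2.50) and Igf2bp3 fell most (-2.79). At P0 Igf2bp3 rose most (1.40). Lin28a, which blocks maturation of let-7 microRNAs, had the largest fall at P0, from 1038 ± 93.6 to 192 ± 29.5 normalized counts, and the largest rise at P3, to 1574 ± 130.2. Its low point fell at P0, as for Nanos3 and Nanos2. Ybx2 fell by 1.46 at P3. For this list equal totals gave 5 higher and 8 lower, 11 higher and 1 lower, and 4 higher and 9 lower.

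**Figure D4:**
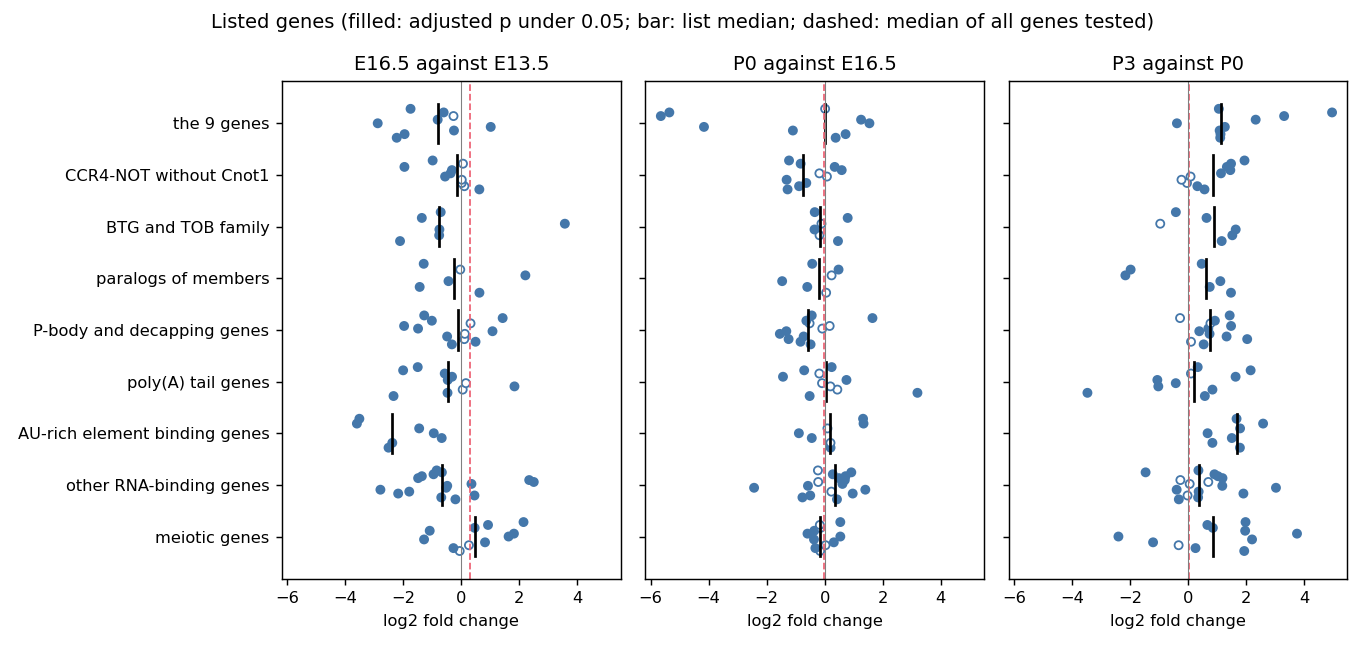
Log2 fold changes of the 9 genes and of the genes of 8 lists (points, filled where limma's adjusted p was under 0.05) for the consecutive comparisons of stages. Black bars are list medians and the dashed line is the median of all genes tested, at 0.31, -0.01 and 0.05; all 7 AU-rich element binding genes lie to the left of 0 at E16.5 and to the right at P3.

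Meiotic genes, which NANOS2 is known to hold back in fetal male germ cells, were read beside Nanos2. Of 11 genes, 6 rose and 3 fell at E16.5 against E13.5, where Nanos2 was not called (median 0.46). At P0, where Nanos2 and Nanos3 were lowest, 3 rose and 4 fell (median -0.15). Stra8, the gene that starts meiosis in response to retinoic acid, had 436 ± 4.03 normalized counts at E16.5 and 290.4 ± 32.7 at P0. This log2 fold change of -0.59 became 0.07 (limma adjusted p 0.635) with equal library totals. The largest rise at P0 was that of Spo11, at 0.54. At P3 against P0, where Nanos2 and Nanos3 rose, 8 rose and 2 fell (median 0.86). Stra8 reached 3937 ± 327 and Taf7l went from 4347 ± 316 to 17189 ± 1083, while Spo11 fell from 1183 ± 122 to 227 ± 53.2. At E16.5 Taf7l had risen most (2.15) and Smc1b had fallen most (-1.28). With libraries scaled to equal totals 9 rose and 2 fell, 10 rose and 0 fell, and 5 rose and 4 fell. The medians of the list were then 0.97, 0.51 and 0.02, beside 0.84, 0.68 and -0.86 over all genes tested. Whether meiotic messages follow Nanos2 was not tested.

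How libraries are scaled bore on the smaller changes of the 9 genes. The size factors of the file give a median log2 fold change over all genes of 0.31, -0.01 and 0.05 in the consecutive comparisons, and equal library totals give 0.84, 0.68 and -0.86. Under the file's factors, TMM, median-of-ratios, poscounts and equal totals, the falls of Nanos2, Nanos3 and Dnd1 at P0, the rises of Nanos2, Nanos3 and Nanos1 at P3, and the falls of Dazl, Cnot1 and Elavl2 at E16.5 kept their direction and passed.

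**Figure D5:**
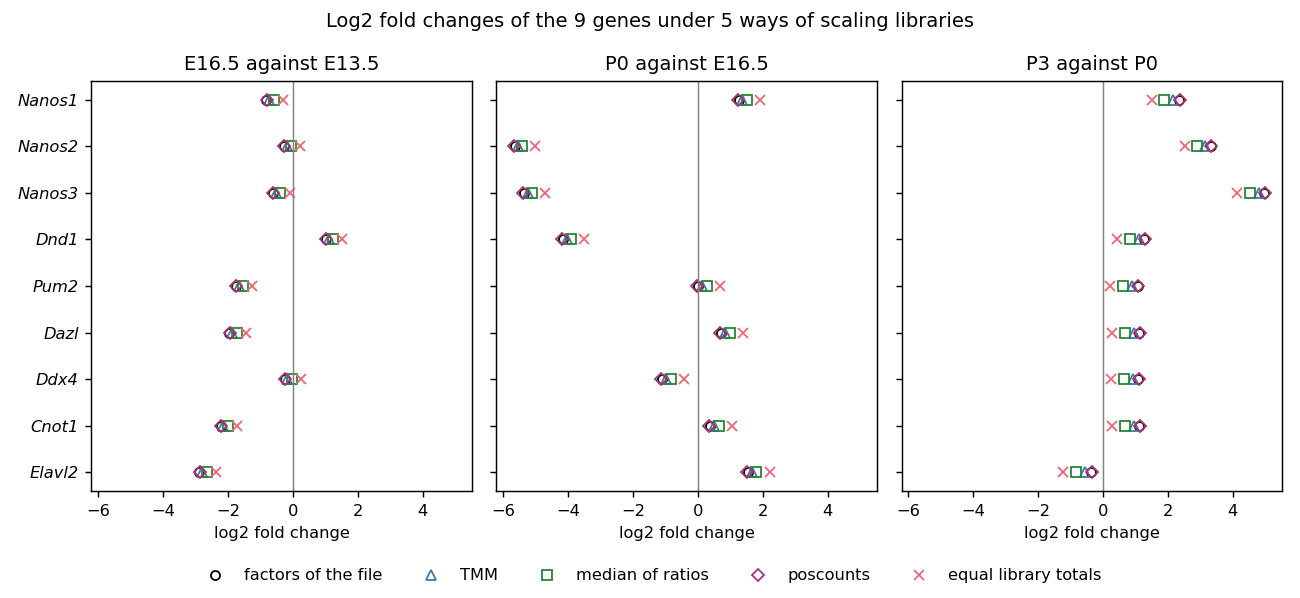
Log2 fold changes of the 9 genes for the consecutive comparisons of stages under 5 ways of scaling libraries (symbols). Equal library totals shift every gene to the right in the panels of E16.5 against E13.5 and P0 against E16.5 and to the left at P3 against P0, and Ddx4 crosses 0 at E16.5 against E13.5.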

How the data were processed

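RNA was sequenced from male germ cells at 4 stages, with 3 libraries each, for which the labels' protocols name SMART-seq v4 (cDNA) and TruSeq mRNA (library) kits. The authors deposited 1 table of a signal, the read count per gene divided by a size factor per library (RLE, per the file's name). The submitters' processing notes list cutadapt 1.18, HISAT2 2.1.0, featureCounts 1.5.2, DESeq2 1.26.0 and the builds mm10 and GRCm38. Every value was a whole multiple of the value of 1 read in its library (100% within 0.001), so reads were recovered by division. The recovered reads numbered 40946616 to 51533747 per library. The 95% intervals of log2 fold changes are limma's, from the spread between libraries, and the floor of 3 reads covers counting error only.

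Column heads carry the numbers 1, 3 and 4, which are not the titles' replicate numbers, so columns were assigned to stages only. Symbols matched 55141 of 55487 genes. Positions and exon lengths are from GENCODE M21 (GRCm38), and promoters from RefSeq (GRCm38.p6). Main test: limma 3.58.1 (R 4.3.3, lmFit and eBayes with trend) on log2(normalized count + 1), for 22384 genes (10 or more normalized counts in 3 or more libraries), over all 12 libraries, Benjamini-Hochberg over all genes, threshold 0.05. edgeR 4.0.16 (quasi-likelihood) and DESeq2 1.42.0 were run on the recovered reads of the same genes, and called 14370 and 14301 genes at P0 against E16.5, where limma called 13658. The methods were also run on simulated reads with known size factors, which cannot test how libraries should be scaled. Other scalings, pseudocounts, filters and left-out libraries are in the closing section. The 9 genes, the lists and the tests were chosen with earlier results of these data known, so no list test was run. Named genes are the 9, the genes of the lists (with the largest rise and fall of each list at each consecutive comparison), and for each of the 9 the 3 genes of nearest pattern, without predicted-gene, clone or Rik names. Python 3.11.15 was used for the other steps. The values of 1 gene of the lists are not reported here.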

Additional observations from a re-analysis of the deposited data

How the results depend on the processing

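No paired analysis was possible because the labelled replicate numbers could not be matched to columns. A block on the numbers in the column heads, which the labels do not explain, was not fitted. The count of changed genes among the 9 lay within 1.5 times that reported in every comparison. It was 6 to 8 (E16.5/E13.5), 8 to 9 (P0/E16.5), 8 to 9 (P3/P0), 7 to 9 (P0/E13.5), 7 to 9 (P3/E16.5) and 7 to 8 (P3/E13.5). The shares of all genes called that are given above belong to the main test, not to these settings. The settings tried were other size factors (TMM, median-of-ratios, poscounts, equal library totals), pseudocounts of 0.1 or 10, other filters (none, or a mean of 100 or more), fits of the compared stages alone, edgeR, DESeq2, each library left out, and, added after seeing the data, E16.5 library 4 and P0 library 1 left out together.

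Among 648 fold changes refitted with 1 library left out, 2 changed their call, both for Nanos3 at P3 against E16.5, which passed without P0 library 3 or 4. Among 648 under the other settings 629 kept their call, 7 lost the call and 9 gained it. The other 3 changed sign with a call in at least 1 of the 2 fits, all with equal library totals. Dazl, not called in the main test, became 0.22 in the comparison of P3 with E13.5 and was called. Ddx4 became 0.26 for E16.5 relative to E13.5 and was called in both directions. For P3 relative to E13.5 Ddx4 became 0.074 and was no longer called. That scaling moves the median of all genes, as given above. Depth limits Nanos2 at P0, which rests on 13 to 28 reads a library.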
